A study of Mus musculus with 11 samples.

Results

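The estrogen-related receptors (Esrra, Esrrb, Esrrg), the peroxisome proliferator-activated receptors (Ppara, Ppard, Pparg), their heterodimer partner Rxra, the co-activators Ppargc1a and Ppargc1b and the mitochondrial transcription factor Tfam were followed through 11 peak lists of mouse stomach glands. These 10 genes were chosen as listed regulators of parietal cell energy and differentiation. All peaks in the body of each gene and 50 kb on each side were taken, and overlapping peaks of the 11 lists were merged into regions. The windows covered 2.92 Mb and held 127 regions of 58978 in the genome, of which 100 carried a peak of acetylated lysine 27 of histone H3 (H3K27ac), a mark of active promoters and enhancers. H3K27ac was profiled in 8 libraries and H3K4me3, the trimethylated lysine 4 that marks promoters, in 3.

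Estrogen-related receptors are orphan nuclear receptors that need no estrogen. They bind DNA near genes of the citric acid cycle, the respiratory chain and fatty acid oxidation, and they owe most of their activity to the co-activators encoded by Ppargc1a (PGC-1 alpha) and Ppargc1b (PGC-1 beta). Peroxisome proliferator-activated receptors bind fatty acids and their derivatives, and bind DNA as heterodimers with a retinoid X receptor. Tfam is a nuclear gene whose product packages and transcribes mitochondrial DNA and is a classical target of the PGC-1 pathway. In the stomach the pathway is known from the acid-secreting parietal cell, which is packed with mitochondria to drive its proton pump, and Esrrg has been studied as a regulator of that cell's maturation.

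The glands came from 4 genotypes. Wild-type mice carried no transgene. Mice labelled Atp4bCre; Rosa26NICD (NICD below, titled as controls in the labels) expressed Cre from a parietal cell promoter, which switched on the intracellular, active part of Notch. On that background the remodelling factor gene Arid1a was floxed on 1 allele (Arid1aflox/+, the 1-allele group) or on 2 alleles (Arid1aflox/flox, the 2-allele group), so every floxed group also carried NICD. Each group had 2 H3K27ac libraries. H3K4me3 was profiled once in wild type, once in NICD and once in an Arid1a-floxed library whose title and genotype disagree on the number of alleles. Ages are not given in the sources used here, and the peak lists do not read the Arid1a deletion itself. Fixed epithelial pellets were pooled before the pull-down, and it is not stated that replicates came from separate animals. The p-values below therefore cover only the library-to-library spread.

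The H3K27ac lists differed in length. They held 20590 and 18360 peaks in wild type, 41405 and 25442 in NICD, 5165 and 7602 in 1-allele libraries, and 15362 and 14373 in 2-allele libraries. Sequencing depth after duplicate removal was 7.96 M to 18.26 M tags where it was stated, with the fewest tags in NICD replicate 2, and was unknown for the 2-allele group. A promoter peak, one within 1 kb of a gene start, was found at 17.2% to 54.3% of the 21887 protein-coding genes, lowest in 1-allele replicate 1 and highest in NICD replicate 1. Of 6 parietal markers, 3 and 2 had an H3K27ac promoter peak in the wild-type libraries, where 44.8% and 42.6% of all genes had one. Atp4b and Hrh2 were called in both wild-type libraries and Cblif in replicate 1. Atp4a, Kcne2 and Slc26a7 had no promoter peak in any of the 8 H3K27ac libraries. In bulk glands, fewer cells of a type and less mark per cell cannot be told apart.

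Upstream sequences of 6 of the genes are shown, the first 3 for the promoter calls described below and the next 3 for a letter match. They are taken from RefSeq (GRCm38.p6) and run 5′ to 3′ on the strand of the gene. The first 3 give the 250 bases before a start: Esrrg (chr1:187651508-187651757, plus strand), whose promoter region had H3K27ac peaks in wild type alone, Ppargc1a (chr5:51567726-51567975, minus strand), acetylated in 1 wild-type library, and Ppard (chr17:28232504-28232753, plus strand), which had no peak in either 1-allele library. No H3K27ac peak reached into these 3 stretches themselves, since the Ppard peaks lay after the start, the Esrrg peaks between this start and the next, and the Ppargc1a peak farther upstream. The next 3 give 30 bases around a match: Ppara (chr15:85735735-85735764, plus strand), Pparg (chr6:115361104-115361133, plus strand) and Tfam (chr10:71238067-71238096, minus strand). Capitals mark the Nrf1 palindrome in Ppara, the nuclear receptor core AGGTCA in Pparg, and in Tfam the Ets letters CCGGAAGT followed by the Rbpj letters TGGGAA read on the other strand.
Esrrg: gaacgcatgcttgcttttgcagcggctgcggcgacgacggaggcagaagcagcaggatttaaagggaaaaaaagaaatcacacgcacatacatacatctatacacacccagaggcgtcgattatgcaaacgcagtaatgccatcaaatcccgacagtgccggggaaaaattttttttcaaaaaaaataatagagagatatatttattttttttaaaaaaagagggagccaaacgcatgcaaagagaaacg
Ppargc1a: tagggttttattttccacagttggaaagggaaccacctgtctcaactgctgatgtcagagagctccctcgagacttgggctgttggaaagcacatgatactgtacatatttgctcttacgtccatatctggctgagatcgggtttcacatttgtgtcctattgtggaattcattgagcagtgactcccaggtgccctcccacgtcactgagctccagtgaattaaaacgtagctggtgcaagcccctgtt
Ppard: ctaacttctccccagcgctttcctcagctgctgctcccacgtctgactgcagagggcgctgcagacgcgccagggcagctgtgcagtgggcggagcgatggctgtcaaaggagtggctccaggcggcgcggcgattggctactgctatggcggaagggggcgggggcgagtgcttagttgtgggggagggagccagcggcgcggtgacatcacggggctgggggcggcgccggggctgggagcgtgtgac
Ppara: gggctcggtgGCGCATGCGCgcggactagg
Pparg: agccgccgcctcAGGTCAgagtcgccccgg
Tfam: gcggaCCGGAAGTccgggcTTCCCAcagta

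In these letters, searched on both strands of 250 bases before each start, Ppara held the Nrf1 match, 31 bases before its start. That match, which Nrf1, an activator of nuclear genes for mitochondria, is known to bind, occurs in 1.07% of 21263 such windows in the genome. Tfam held the Ets match 47 bases before its start, found in 3.79% of all windows. The Ets family includes the factor encoded by Gabpa, also a known activator of mitochondrial genes. The full estrogen-related receptor element TCAAGGTCA was in none of the 16 windows of the 9 genes with a RefSeq start and in 0.32% of all windows. The repeat of a pair of AGGTCA motifs with a single base between them, the classical element of the Ppar and Rxra pair, was also in none, against 0.0423% of all windows. The core AGGTCA, which is contained in both longer elements, was in 3 of 16 windows, at the first and second starts of Pparg and at the second start of Rxra, against 12.8% of all windows. TGGGAA, the letters bound by Rbpj, the DNA-binding partner of NICD, was in 3 windows (Rxra, Pparg and Tfam), against 20.9% of all windows. These matches describe the letters only.

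The plot of promoter peaks by gene and library gives the strongest H3K27ac and H3K4me3 peak at each member, as a percentile by the authors' fold enrichment inside that library's own list. A percentile of 100 is the strongest peak of the list. Lists of different length cover different parts of the range of peak strength, so a rank places a peak inside its library and shows no change in signal between libraries. Over all genes with a promoter peak, the median percentile was 72.6 and 70.9 in wild type and 83.9 and 76.4 in NICD. It was 55.4 and 56.9 in 1-allele libraries and 67 and 65.7 in 2-allele libraries. Rank differences between groups at single members below are to be read beside these medians. The 2-allele lists carry no scores, so their percentile is the place in the file: of the first 1000 regions, 99.8% and 99.6% lay in regions called in both NICD libraries, against 76.4% of the last 1000 in each list. That order is not known to follow fold enrichment. Where a 2-allele percentile is set beside other libraries below, the measures are therefore unlike.

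**Figure D1:**
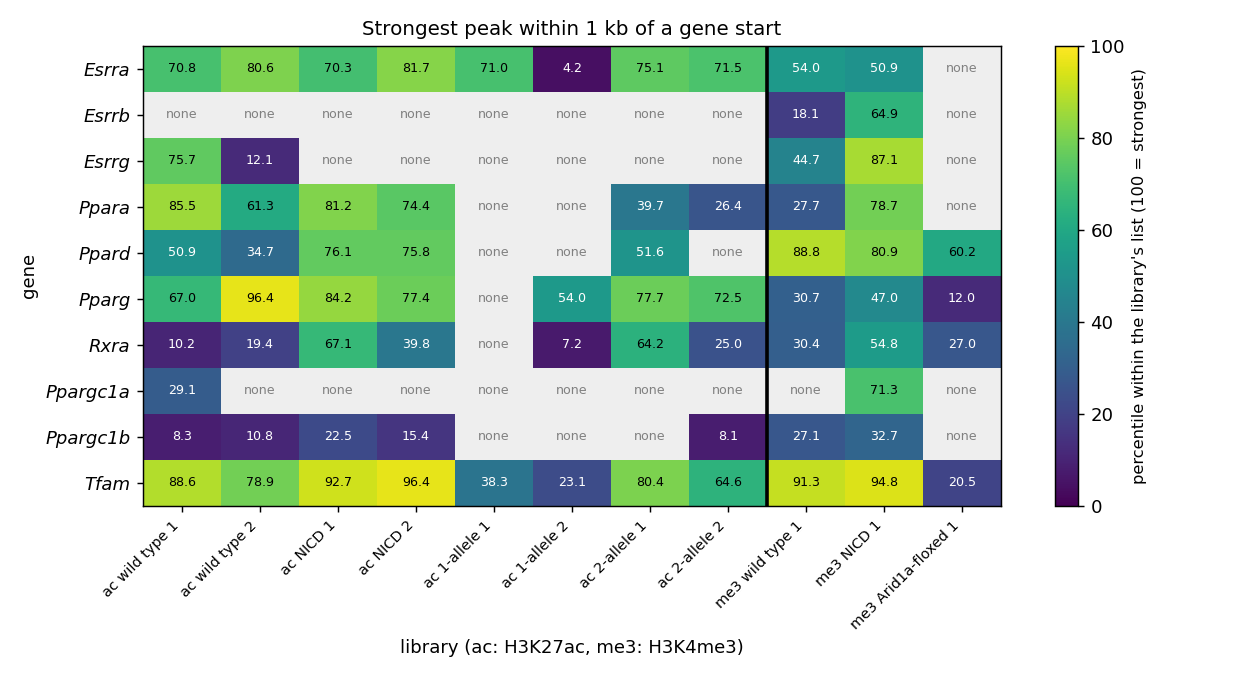
Percentile of the strongest peak within 1 kb of a gene start (color, and printed in each cell) for the 10 genes (rows) in the 8 H3K27ac libraries (ac) and 3 H3K4me3 libraries (me3). Cells marked none had no peak there; Esrra and Tfam have a value in all 8 H3K27ac libraries and Esrrb in none.

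Over the 10 promoters, 49 of 80 gene and library pairs had an H3K27ac peak. Wild type had 9 and 8 of the promoters called, each NICD library 7, the 1-allele libraries 2 and 4, and each 2-allele library 6. Over all genes, the shares called were 44.8% and 42.6% in wild type and 54.3% and 48.9% in NICD. They were 17.2% and 27.1% in 1-allele libraries and 44.4% and 42.7% in 2-allele libraries. Only the promoters of Esrra and Tfam were called in all 8 libraries, and that of Esrrb in none. Over the 11 lists, the farthest promoter peak that counted lay 0.49 kb from a start and the nearest peak that did not lay 1.35 kb away.

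Esrra, which encodes the broadly expressed receptor ERR alpha (chr19:6910977-6922048), kept a promoter peak in every H3K27ac library. Its percentile was 70.8 and 80.6 in wild type, 70.3 and 81.7 in NICD, 71.0 and 4.2 in 1-allele libraries, and 75.1 and 71.5 in 2-allele libraries. All but 1-allele replicate 2 lay above 70, and in that library the promoter was among the weakest peaks of the list. H3K4me3 was called there in wild type (54.0) and NICD (50.9) and was not called in the floxed library.

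Esrrb, known for its part in embryonic stem cells and early development (chr12:86361117-86521628), had no H3K27ac promoter peak in any library. H3K4me3 was nevertheless called at its second start, with a percentile of 18.1 in wild type and 64.9 in NICD. Its most often called H3K27ac region lay 14.1 kb inside the gene from that start, with percentiles of 5.0 in wild-type replicate 2, 79.4 and 52.7 in NICD and 37.4 in 2-allele replicate 2. The region beside it, at 14.7 kb, was called in both NICD libraries (32.0 and 28.0) and in no other H3K27ac library.

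Esrrg, which encodes ERR gamma, the receptor of tissues with high energy demand (chr1:187608510-188214885), was the member whose promoter peak separated wild type from NICD. A region at the second and the third start (chr1:187651514-187652279) had H3K27ac percentiles of 75.7 and 12.1 in wild type. It had no H3K27ac peak in NICD, 1-allele or 2-allele libraries. Promoters with a peak in both wild-type lists but neither NICD list numbered 28 in the genome, or 0.128% of genes, against 1 of these 10. The call in wild-type replicate 2 was weak and was lost at a −log10 q of at least 5 and when lists were cut to the length of the shortest list (5165) or of the shortest outside the 1-allele group (14373), so the count was 0 under each of these.

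H3K4me3 was called at the Esrrg promoter in both genotypes. The region was at percentile 44.7 in the wild-type H3K4me3 list and 87.1 in the NICD list, and another 7 regions of the gene body, none at a listed start, had H3K4me3 in NICD alone. No distal region of the 706.4 kb window had H3K27ac in any library. The floxed H3K4me3 library had no peak in the window, in a list of 5175 peaks against 39420 in NICD. Beside this result, of 6 parietal markers the promoters called were 3 and 2 in wild type, 0 and 0 in NICD, 1 and 0 in 1-allele libraries and 0 in each 2-allele library. Atp4b, a proton pump subunit, and Hrh2, the histamine receptor of the parietal cell, had H3K27ac promoter peaks in both wild-type libraries and neither NICD library, as Esrrg did. Atp4b was also called in 1-allele replicate 1, and its H3K4me3 peak was in the NICD and not the wild-type list. Their part in the Esrrg result was not tested.

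Ppara, the fatty acid sensor that drives fatty acid oxidation (chr15:85734910-85806851), had a promoter peak in all wild-type, NICD and 2-allele libraries. Its percentile was 85.5 and 61.3 in wild type, 81.2 and 74.4 in NICD, and 39.7 and 26.4 in 2-allele libraries. Neither 1-allele library had the peak. The 2-allele values were the lower ones, but they are places in the file and the others are ranks by fold enrichment. H3K4me3 rank was 27.7 in wild type and 78.7 in NICD. Ppara was the one member found in both 2-allele lists but neither 1-allele list, a pattern of 12.2% of all genes.

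Ppard, the widely expressed receptor of the family (chr17:28232754-28301469), was at percentile 50.9 and 34.7 in wild type and 76.1 and 75.8 in NICD. It had no promoter peak in 1-allele libraries and was called in 1 of the 2-allele libraries, replicate 1, at 51.6. NICD ranks therefore lay above those of the other groups. H3K4me3 was called in all 3 lists, at 88.8 in wild type, 80.9 in NICD and 60.2 in the floxed library. A region 39.5 kb inside the gene (chr17:28271542-28273001) was the most widely shared distal region of the 10 windows. It was called in 7 of 8 H3K27ac libraries, all but 1-allele replicate 2, and in all 3 H3K4me3 libraries, at percentiles of 16.8 to 60.6 for H3K27ac.

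Pparg, the receptor best known for fat cell formation and also active in epithelia (chr6:115360879-115490404), had its promoter called in every H3K27ac library but 1-allele replicate 1. The percentile was 67.0 and 96.4 in wild type, 84.2 and 77.4 in NICD, 54.0 in 1-allele replicate 2, and 77.7 and 72.5 in 2-allele libraries. Those ranks overlapped between wild type, NICD and 2-allele libraries. The peak lay at the first and second starts, while the third start, deep in the gene, had an H3K27ac peak in NICD replicate 1 only (50.7). H3K4me3 was called at 30.7, 47.0 and 12.0 in wild type, NICD and floxed lists. Of 5 fat cell markers Cidec alone had an H3K27ac promoter peak, in 5 of the 8 libraries, and Adipoq, Plin1, Fabp4 and Lep had none.

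Rxra, the obligate partner of the Ppar receptors (chr2:27676445-27763319), had its promoter at percentile 10.2 and 19.4 in wild type and at 67.1 and 39.8 in NICD. It was absent from 1-allele replicate 1, at 7.2 in replicate 2, and at 64.2 and 25 in 2-allele libraries. The wild-type and NICD ranks did not overlap, and the 2-allele pair fell on both sides of NICD replicate 2. Its second start had no peak of either mark within 1 kb.

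Ppargc1a, the inducible co-activator of mitochondrial biogenesis (chr5:51454249-52115853), had an H3K27ac peak at its listed start in wild-type replicate 1 alone, at percentile 29.1. That call was lost at a −log10 q of at least 5 and in both shortened settings. H3K4me3 was called there in NICD alone, at 71.3. A pair of H3K4me3 regions of NICD also covered the far end of the annotated gene, where no start was listed (chr5:52114662-52116270 for the outer one, percentile 15.0).

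Ppargc1b, its closest relative (chr18:61291445-61400756), had promoter peaks of low rank wherever it was called. The percentile was 8.3 and 10.8 in wild type, 22.5 and 15.4 in NICD and 8.1 in 2-allele replicate 2. It was not called in either 1-allele library, and in 2-allele replicate 1 the nearest peak lay 1.35 kb from the start, outside the promoter rule. NICD ranks were the highest of these low values. H3K4me3 was at 27.1 in wild type and 32.7 in NICD.

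Tfam (chr10:71225468-71238328) had the promoter peak with the highest ranks in several lists, called in all 11. For H3K27ac its percentile was 88.6 and 78.9 in wild type, 92.7 and 96.4 in NICD, 38.3 and 23.1 in 1-allele libraries, and 80.4 and 64.6 in 2-allele libraries. NICD libraries lay above every other library, and the 1-allele libraries below every other. The medians over all genes were likewise highest in NICD and lowest in the 1-allele libraries. H3K4me3 was at 91.3 in wild type, 94.8 in NICD and 20.5 in the floxed library.

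Few member promoters separated one group from another. Promoters found in both NICD lists but neither wild-type list numbered 0 of 10, against 3.8% of all genes, and those missing instead from both 2-allele lists 0 of 10, against 3.71%. Calls in both libraries of a floxed group without either NICD library numbered 0 of 10 for 1 allele (0.00457% of genes) and 0 of 10 for 2 alleles (0.0228%). Calls in both 1-allele lists without a 2-allele call also numbered 0 of 10 (0.0366%). Ppara, Ppard and Ppargc1b were found in both NICD lists but neither 1-allele list. These are 3 of 10 against 19.1% of all genes, or 42.9% of the 7 members called in both NICD libraries against 39.2% of 10634 such genes. The share of the members missing from the 1-allele libraries was thus close to that of NICD promoters in general. With −log10 q of at least 5 in the scored lists the count was 5 (24.1% of all genes), and with lists cut to 5165 it was 0 (3.15%).

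The number of regions varied most away from promoters. Of the 127 regions, 15 were at a start of a member, 18 at the start of a neighbouring gene and 94 were distal, of which 71 had H3K27ac and 23 had H3K4me3 only. Distal regions with H3K27ac numbered 16 in each wild-type library, 64 and 30 in NICD, 1 and 2 in 1-allele libraries and 5 and 7 in 2-allele libraries. Regions at member starts numbered 12 and 10 in wild type, 10 and 9 in NICD, 2 and 4 in 1-allele libraries, and 8 in each 2-allele library. Of the 71 distal regions, 34 were called in a single H3K27ac library, 28 of them in NICD replicate 1, and none was called in all 8. The plot of distal regions per gene shows that NICD replicate 1 had the most in each gene that had any.

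**Figure D2:**
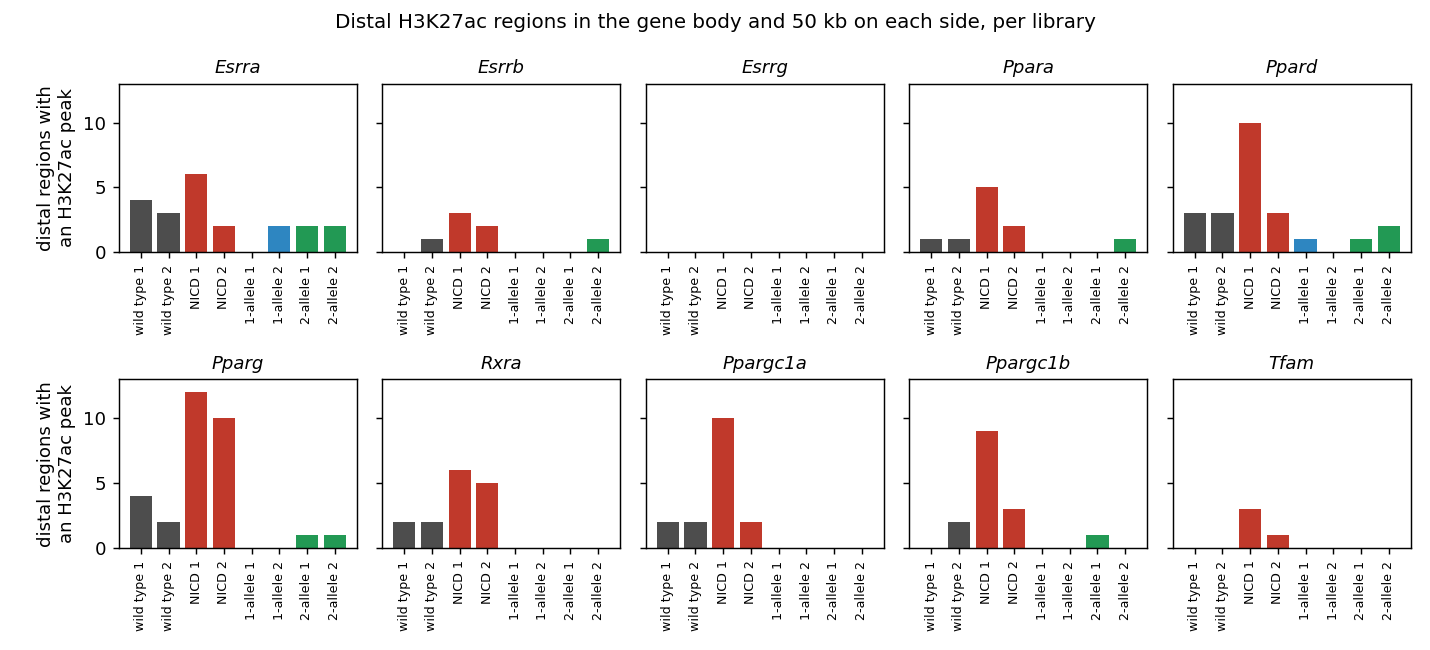
Number of distal H3K27ac regions (y axis) in the gene body and 50 kb on each side, 1 bar per library, for each of the 10 genes. Pparg has 12 and 10 in the NICD libraries and at most 4 elsewhere, and Esrrg has none in any library.

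Counting all regions, the windows held 39 ± 2.83 in wild type, 71.5 ± 24.7 in NICD, 8 ± 2.83 in 1-allele libraries and 25.5 ± 0.707 in 2-allele libraries (SD, n = 2 each). As a share of each list these were 0.237% and 0.234% in wild type, 0.231% and 0.243% in NICD, 0.124% and 0.142% in 1-allele libraries and 0.189% and 0.194% in 2-allele libraries. Wild-type and NICD shares overlapped, so the larger number in NICD went with the longer lists. Both floxed groups had smaller shares than every wild-type and NICD library. With all lists but the 1-allele pair cut to 14373 peaks, the means were 22 regions in wild type, 24 in NICD and 24 in 2-allele libraries.

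Each window was compared over the 4 groups with an exact permutation test of the number of H3K27ac regions per library. This exact permutation test ran over the 105 ways of dividing 8 libraries into 4 pairs, which cannot go below p = 0.00952, and was adjusted (Benjamini-Hochberg) over 21887 genes. An unadjusted p under 0.05 was reached by 6 of the 10 members, against 20.5% of all genes. Member windows were denser than most: the NICD medians were 9.5 and 5 regions for members, against 4 and 2 for all genes. The 1-allele medians were 0 and 1 for both sets. Genes were not matched for this density, so the comparison does not show an excess of group differences among the members. No member passed after adjustment, nor did any gene (0% of 21887), and the count of 6 fell to 0 with the lists cut to 14373 or to 5165. Left-out libraries gave 2 to 7, with 2 reached without 1-allele replicate 1, without 2-allele replicate 1 and without 2-allele replicate 2, and 3 without either wild-type library or without NICD replicate 1.

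The window of Pparg reached the smallest p the test allows. It held 5 and 3 regions in wild type, 14 and 11 in NICD, 0 and 1 in 1-allele libraries and 2 in each 2-allele library (exact permutation p = 0.00952, adjusted p = 0.165). Every NICD library had more regions than every other library. NICD exceeded wild type by 8.5 regions, with lists of equal length at 14373 by 0, and at 5165 the difference was -0.5. In 1902 genes whose windows were within a factor of 1.25 in length, the median was 3.5 regions in NICD and 2 in wild type, against 12.5 and 4 at Pparg.

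Ppard held 9 and 8 regions in wild type, 18 and 10 in NICD, 2 in each 1-allele library and 8 and 6 in 2-allele libraries (exact permutation p = 0.019, adjusted p = 0.165). Rxra held 4 in each wild-type library, 8 and 7 in NICD, 0 and 1 in 1-allele libraries and 1 and 2 in 2-allele libraries (p = 0.019 by the exact permutation test, adjusted p = 0.165). At both genes the NICD libraries were highest, and at Rxra wild type lay above both floxed groups. The window of Ppard, unlike that of Rxra, contains promoters of other genes, among them Rpl10a, called in all 8 libraries.

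Esrra held 10 and 9 regions in wild type, 12 and 9 in NICD, 2 and 4 in 1-allele libraries and 7 and 6 in 2-allele libraries (exact permutation p = 0.0286, adjusted p = 0.165). Ppara held 5 and 4, then 9 and 6, then 0 and 1, then 4 and 5 in the same order (exact permutation p = 0.0286, adjusted p = 0.165). Here wild type and NICD overlapped at Esrra and did not at Ppara, and the 1-allele libraries were lowest at both. Without NICD replicate 1 the difference at Esrra was -0.5 regions. Ppargc1b held 1 and 3 regions in wild type, 10 and 4 in NICD, none in 1-allele libraries and 2 and 1 in 2-allele libraries (exact permutation p = 0.0476, adjusted p = 0.23).

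The other 4 windows had p of 0.143 or 0.2 by the exact permutation test. Esrrb had 0 and 1 regions in wild type, 3 and 2 in NICD, none in 1-allele libraries and 0 and 1 in 2-allele libraries. Esrrg had 2 and 1 in wild type and none elsewhere. Ppargc1a had 3 and 2 in wild type, 10 and 2 in NICD and none in any floxed library, so its higher NICD mean rested on replicate 1: without it the difference from wild type was -0.5. Tfam had 2 in each wild-type library, 5 and 3 in NICD, 2 and 1 in 1-allele libraries and 2 in each 2-allele library.

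The map of 4 loci places these regions along the genes. It shows distal regions of NICD spread over Pparg and Rxra and no distal H3K27ac region at Esrrg. The Esrrg body held H3K27ac in wild type only, at listed starts. Besides the promoter region described above, the region chr1:187997467-187998491 was called in wild-type replicate 1 alone, at percentile 26.5.

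**Figure D3:**
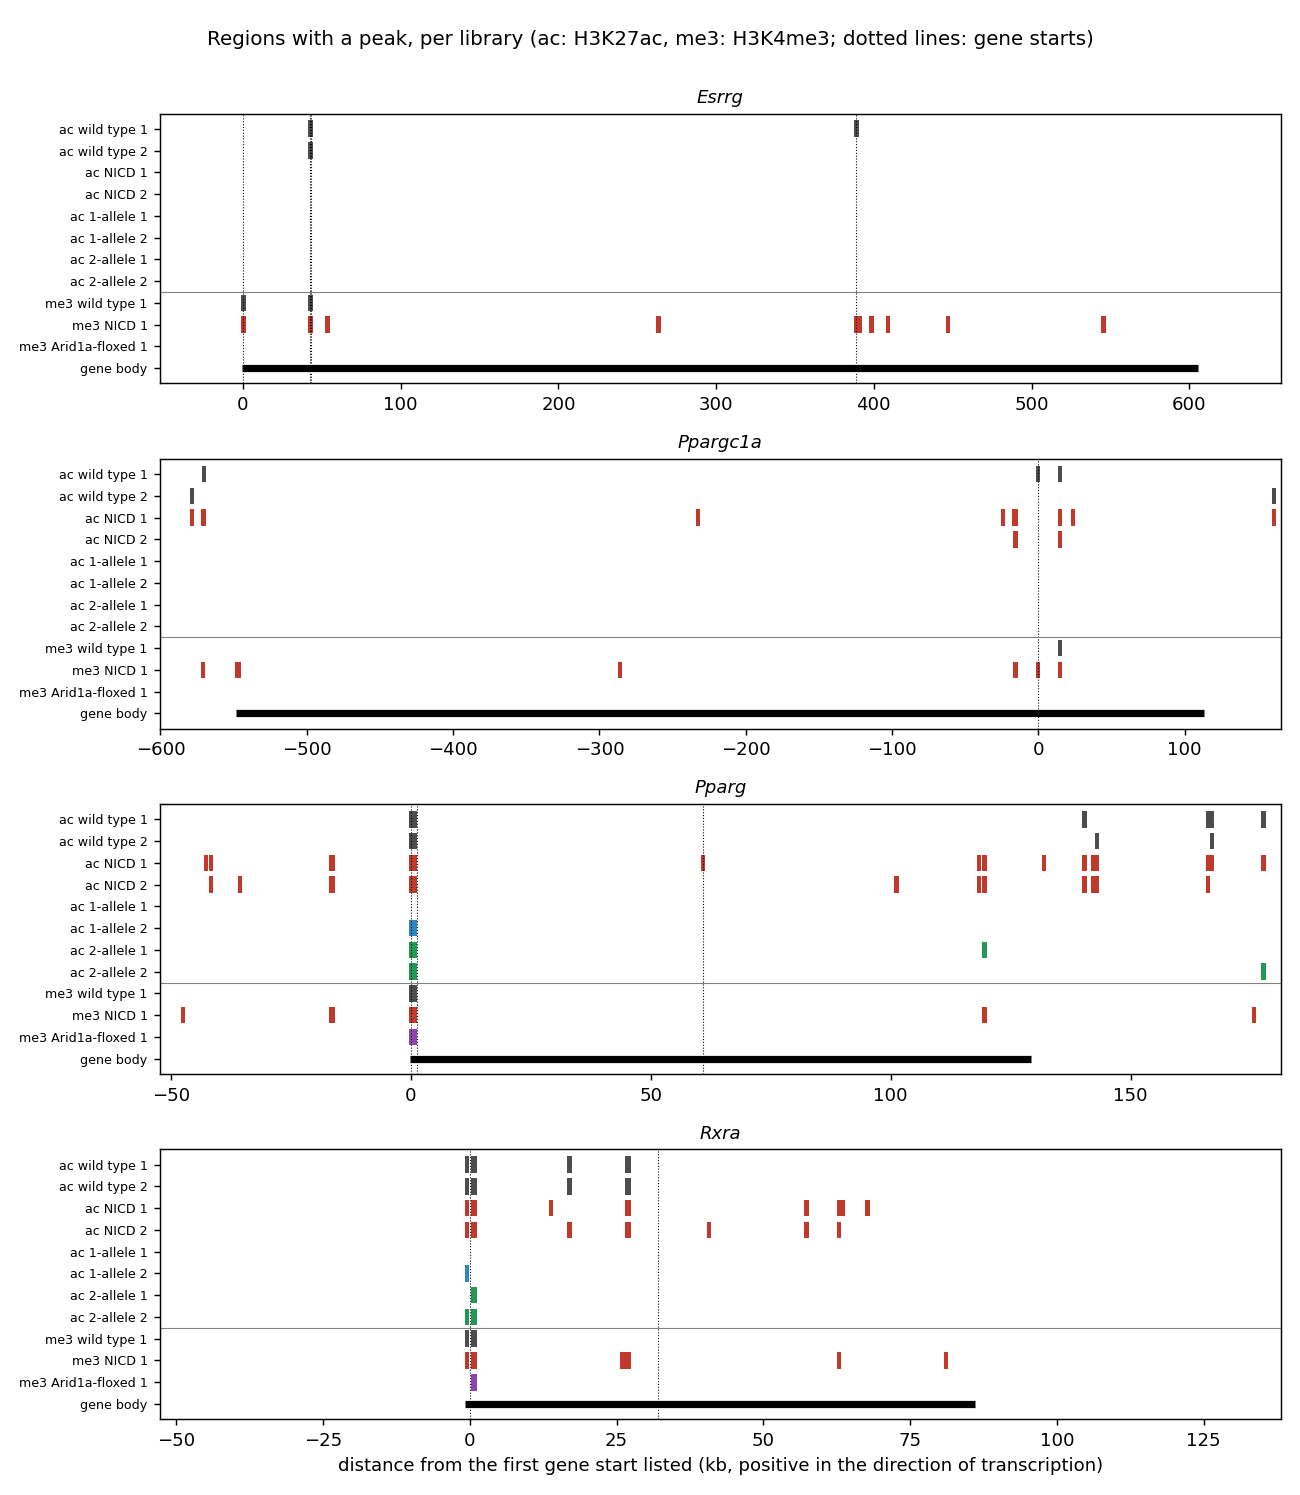
Regions with a peak (bars, widened to at least 1/250 of the window so that they can be seen) in each of the 11 libraries (rows; ac H3K27ac, me3 H3K4me3), along the distance in kb from the first listed start of Esrrg, Ppargc1a, Pparg and Rxra. At Pparg the promoter bar is in 7 of 8 H3K27ac rows, while the bars before the first start are in NICD rows only.

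Regions found in both NICD lists but neither wild-type list numbered 14 of the 100 with H3K27ac, against 13% of 43537 in the genome. Of these, 13 were distal, 5 lay in the Pparg window and 5 overlapped an H3K4me3 peak of NICD. None was called in a 1-allele library and 2 were called in a 2-allele library. Of the genome's distal regions in both NICD lists, 10.41% and 13.04% were called in the 1-allele libraries. In the 2-allele libraries it was 32.8% and 29.4%. No such share is given for regions absent from wild type, so these counts cannot be read as a loss particular to these genes. With lists cut to 14373 peaks the count of 14 became 4 (5.46% of the genome's regions at that setting), and to 5165 it was 0. Leaving out NICD replicate 2 raised it to 45, where the genome's share was 47.4%. Of markers of other cells, Ptprc, the only one of 5 blood cell markers called, had a promoter peak in both NICD libraries and 2-allele replicate 1, and of 3 chief cell markers, Bhlha15 was called in both NICD libraries and Pgc in wild-type replicate 1 alone. Both neck cell markers, Muc6 and Tff2, and the fibroblast marker Col1a1 were called in NICD replicate 1 alone. Of 4 pit cell markers 2 and 3 were called in wild type and 3 and 1 in NICD, and of 3 intestinal markers 1 and 0 in wild type and 2 and 1 in NICD. Cidec, the only one of 5 adipocyte markers called, had a peak in both wild-type, both 2-allele and 1 NICD library. Acta2, 1 of 3 smooth muscle markers, was called in both NICD libraries and wild-type replicate 1, while endothelial, endocrine, squamous and striated muscle markers had no H3K27ac promoter peak in any library. Their part in these counts was not tested.

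The strongest at Pparg lay 58.6 kb from the third start (chr6:115480540-115480860), with percentiles of 37.8 and 62.2 in NICD and 5.6 in 2-allele replicate 1. It was followed by one at -16.4 kb (chr6:115344122-115345279; 46.0 and 34.4) and one at -41.7 kb (chr6:115319197-115319722; 22.2 and 27.3), both absent from all floxed libraries. At Ppargc1a the region at -15.7 kb (chr5:51583143-51583733) was the strongest of all 14, at 67.7 and 83.6, and had an H3K4me3 peak in NICD. It lay inside the annotated gene, upstream of the listed start. Other such regions were at 25.3 and 30.8 kb of Rxra, 122 and -37.6 kb of Ppargc1b, 94.2 kb of Ppara and -23.5 kb of Tfam. The one classed at a promoter was a 345 bp region 95.5 kb from the Ppard start, beside the main region at the start of Rpl10a, a ribosomal protein gene, which was called in all 8 libraries.

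In the other direction 1 region, the Esrrg promoter, was in both wild-type lists but neither NICD list, against 0.563% of all regions. Leaving out a wild-type or a NICD library gave 2 to 4, against 0.664% to 4.32% of all regions.

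Of the 100 regions, 36 were in both NICD lists but neither 1-allele list, against 29.6% of all regions, and none was the reverse (0.0758% of all regions). With lists other than the 1-allele pair cut to 14373 the 36 became 11 (17.7% of all regions at that setting). Without NICD replicate 2 they became 76 (70.3%). Of the 36, 23 were distal, 8 of them at Pparg.

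For the 2-allele libraries 19 regions were in both NICD lists but neither 2-allele list, against 15.7% of all regions. None was the reverse (0.0758%), and 18 of the 19 were distal. Pparg held 7, Rxra 3, Ppargc1a and Ppargc1b 2 each, and Esrra, Esrrb, Ppara, Ppard and Tfam 1 each. The strongest was the Ppargc1a region at -15.7 kb described above. The Ppard region at 108.1 kb followed, at 71.4 and 57.6 in NICD. Next came the promoter of Plcb3, a phospholipase gene in the Esrra window, at 67.6 and 54.1. A region 14.7 kb inside Ppargc1a (chr5:51552017-51553993), the one called most often in that window, was at 69.5 and 50.7 in NICD and 45.7 in wild-type replicate 1. At a −log10 q of at least 5 in the scored lists the count was 7 (10.2% of all regions at that setting). At 14373 peaks it was 4 (5.42%), and without NICD replicate 2 it was 57 (53.7%).

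Between the floxed groups, 9 regions were in both 2-allele lists but neither 1-allele list, against 9.36% of all regions, and none the other way (0.384%). Of these 9, 8 were at gene starts. They included the Ppara promoter, the Rxra region 0.7 kb inside the gene, and regions at the starts of the neighbours Bad and Gpr137, Pkdrej, Ttc38 and Tead3. Another overlapped the Ppargc1b promoter, although the nearest peak of 2-allele replicate 1 lay 1.35 kb from that start and was not counted as a promoter peak. The one at Rpl10a was the 345 bp region, and the main region at that start was also called in both 1-allele libraries. Without 2-allele replicate 2 the count was 15, against 14.9% of all regions.

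Taking the 48 regions of the windows that were called in both NICD libraries, promoters and distal regions were shared with other genotypes to different degrees. Of 23 regions at gene starts, 95.7% and 87.0% were called in the wild-type libraries, 21.7% and 34.8% in the 1-allele libraries and 91.3% and 78.3% in the 2-allele libraries. Of 25 distal regions, 32% and 28% were called in wild type, 4% in each 1-allele library and 12% and 24% in the 2-allele libraries. The genome had the same order, with 82.7% and 79.0% of 11224 promoter regions and 42.4% and 42.2% of 9397 distal regions called in wild type. In the 2-allele libraries it had 84.2% and 80.5% of promoter and 32.8% and 29.4% of distal regions. For the 1-allele libraries the genome's shares were 31.41% and 48.97% of promoter and 10.41% and 13.04% of distal regions. The promoter shares of these windows were lower there, which was not tested. All 6 distal shares of these windows were lower than the genome's, a difference with no test of its own.

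**Figure D4:**
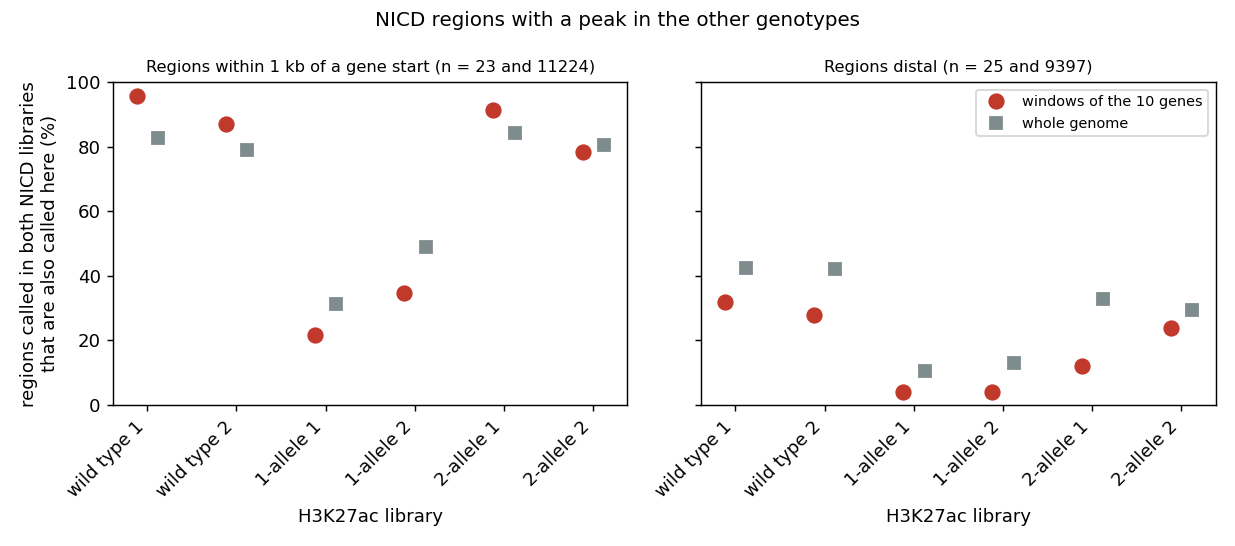
Share (%) of regions called in both NICD libraries that were also called in each of 6 other H3K27ac libraries (x axis), for regions within 1 kb of a gene start (left) and distal regions (right); circles are the windows of the 10 genes and squares the whole genome. In the windows, distal shares are at most 32% and promoter shares outside the 1-allele libraries are at least 78.3%.

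H3K4me3 and H3K27ac were not always called at the same promoters. In NICD all 10 member promoters had H3K4me3, and 3 of them, Esrrb, Esrrg and Ppargc1a, had no H3K27ac in either NICD library (30%, against 17.4% of 14285 genes with H3K4me3 there). In wild type 1 of 9, Esrrb, had none, against 10.9% of 10916 genes. With 1 H3K4me3 library per genotype this has no replicate. The floxed H3K4me3 library had peaks at 4 of the promoters, those of Ppard, Pparg, Rxra and Tfam.

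Other genes of the pathway were read at their promoters from a list of 48 partners, mitochondrial biogenesis genes and targets. Of these 38 and 35 were called in wild type, 41 and 40 in NICD, 20 and 25 in 1-allele libraries, and 37 and 36 in 2-allele libraries, where 17.2% to 54.3% of all genes were called. All 8 libraries called 16, among them Nrf1, Gabpa and Gabpb1, which encode activators of nuclear genes for mitochondria, while Rxrg, Cpt1b, Ucp3, Cd36 and Fabp1 were among those called in none. The share of all genes called in all 8 is not given here, so the 16 cannot be read as a trait of this pathway. Angptl4, a secreted inhibitor of lipoprotein lipase and a Ppar target, was in both NICD lists but neither wild-type list, a pattern of 3.8% of all genes. No gene of the list went the other way (0.128% of all genes).

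Against the 2-allele group, 4 of the 48 were called in both NICD libraries and neither 2-allele library (3.71% of all genes): Nr0b2, a repressor without a DNA-binding domain, Pdk4, the kinase that turns off pyruvate oxidation, Angptl4, and Ckmt1, the mitochondrial creatine kinase. Against the 1-allele group it was 11 of 48 (19.1% of all genes). They included the partners Ncoa3, Nr0b2 and Pprc1, the mitochondrial factor Tfb1m, and the targets Angptl4, Cpt1a, Ehhadh and Ucp2. Pdk4 and Ckmt1 were each called in 1-allele replicate 1. Among the listed genes of the citric acid cycle and respiratory chain, named here after their values were seen, Idh3a, Sdha, Atp5b and Cox5a had a promoter peak in all 8 libraries and Cs and Cycs in 7. These calls too have no share of all genes beside them.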

How the data were processed

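Glands of the mouse stomach were profiled by ChIP-seq. Per the submitters' processing notes, Bowtie2 and MACS2 were used with GRCm38 (mm10). Per the file headers, 9 of the lists were made by MACS 2.0.10.20131216 from single libraries without a control. Duplicates were removed, the q threshold was 0.05 and the local background reached 10 kb, so the absence of a peak does not show the absence of the mark. Their genome size setting was the one for human. The deposited lists give each peak a pileup signal, a −log10 p and −log10 q, and a fold enrichment; these are the authors' scores and served only to rank or filter peaks of the same list. The 2-allele lists give positions alone, with no record of how they were made. Per the labels' protocols an H3K27ac antibody was used; none for H3K4me3 is named. Precision is limited by the 2 libraries per group.

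Overlaps of at least 1 bp merged peaks into regions (Python 3.11.15, pandas 2.3.3, numpy 2.4.6, matplotlib 3.10.9). Starts came from RefSeq promoters (17492 genes), from the gene end with H3K4me3 (2581, Ppargc1b among them), or from both ends (1814). Promoter regions lay within 1 kb of a start and distal regions did not. Genes and regions separated a pair of groups when found in both lists of one and in no list of the other. An exact permutation test of 2 against 2 libraries cannot go below p = 0.333, so pairs were not tested. Scripts were tested on simulated data. Alternatives were windows of 10 and 100 kb, promoters of 2.5 kb, equal list lengths, −log10 q of at least 5, an overlap of 50% of the shorter region, left-out libraries and a replicate block. Named genes were all 10 members, the other pathway genes that separated NICD from wild type or from the 2-allele group, and up to 4 per list for the 1-allele group; named regions were the most often called of each gene and up to 3 that separated those groups, strongest first. Members, gene lists and markers were chosen with earlier results of these data known. A few pathway genes are not reported by name here.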

Additional observations from a re-analysis of the deposited data

How the results depend on the processing

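Direction and size held in 318 of 407 recomputed counts and totals, but part of these could not change under their setting. Promoter calls do not depend on the flank, and region counts do not depend on the promoter width. Values of groups that kept all their libraries stay the same when another library is left out. The 318 is therefore no measure of stability. The exceptions were mostly settings that change the window or the list length, and such changes follow from their construction.

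With 10 kb flanks, 1 member had an unadjusted p under 0.05 by the exact permutation test. Regions in NICD and not wild type numbered 6, NICD and not 1-allele 14, NICD and not 2-allele 7, and 2-allele and not 1-allele 3. The windows held 19.5 (0.118%), 34 (0.113%), 5 (0.0841%) and 12.5 (0.0942%) regions in wild type, NICD, 1-allele and 2-allele libraries. With 100 kb the counts of NICD against wild type and 2-allele were 22 and 30, and the windows held 54.5 (0.329%), 102 (0.339%), 15 (0.252%) and 39.5 (0.297%).

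With lists cut to 14373 peaks, 0 members had p under 0.05. Regions in NICD and not wild type numbered 4 (5.46% of all regions) and NICD and not 1-allele 11 (17.7%). NICD and not 2-allele numbered 4 (5.42%), and 2-allele and not NICD 4 (5.23%). No promoter was in wild type alone (0). The windows held 22 (0.173%), 24 (0.175%) and 24 (0.185%) regions in wild type, NICD and 2-allele libraries. NICD minus wild type was -0.5 at Esrra and Ppara and -1 at Ppargc1b.

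With lists cut to 5165 peaks, 0 members had p under 0.05, 18 promoter calls were left, and the counts for NICD against wild type, 1-allele and 2-allele were 0. Regions in 1-allele and not NICD numbered 1 (5.11% of all regions) and 2-allele and not NICD 3 (7.94%), with 1 promoter. Those in 2-allele and not 1-allele numbered 2 (5.59%), with 0 promoters. The windows held 7 (0.14%), 6 (0.117%) and 9 (0.177%) regions in wild type, NICD and 2-allele libraries, and the 1-allele share was 0.113%. NICD minus wild type was -1 at Esrra and -0.5 at Pparg.

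At a −log10 q of at least 5, which left the unscored 2-allele lists whole, 3 members had p under 0.05, no promoter (0) was in wild type and not NICD, 5 were in NICD and not 1-allele and 3 in 2-allele and not 1-allele, and 7 regions were in NICD and not 2-allele. Wild type held 27.5 regions (0.243%) and the 1-allele group 3.5 (0.0957%). Counting overlaps of 50% of the shorter region gave 2 regions in wild type and not NICD and 26.5 (0.197%) in the 2-allele group. Promoters of 2.5 kb gave 2 in 2-allele and not 1-allele.

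Leaving out each library gave 2 to 7 members with p under 0.05 and 40 to 47 promoter calls. Promoters numbered 1 to 3 for 2-allele and not 1-allele, 3 to 5 for NICD and not 1-allele, 0 to 1 for NICD and not 2-allele, and 1 to 2 for wild type and not NICD. Regions numbered 9 to 15, 36 to 76 and 19 to 57 for the first 3 of these, 14 to 45 for NICD and not wild type, and 1 to 4 for wild type and not NICD. The counts of 76, 57 and 45 came without NICD replicate 2, where the genome's shares were 70.3%, 53.7% and 47.4%. NICD minus wild type ran from -0.5 to 2.5 at Esrra and from -0.5 to 7.5 at Ppargc1a, with -0.5 at both without NICD replicate 1.

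With a replicate block, 3 members had p under 0.05 over 24 splits (smallest p 0.0417) and none after adjustment. Libraries with the same number did not vary together (r from -0.05 to 0.11 over 21887 genes), so the numbers do not pair them.

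Depth of the H3K27ac libraries ran from 7.96 M to 18.26 M tags where stated, and of the H3K4me3 libraries from 11.75 M to 20.81 M. The shortest list, of 5165 peaks, came from 16.62 M tags, while 7.96 M tags gave 25442 peaks in NICD replicate 2. A peak missing from a short list does not show that the mark was absent there.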
